A study of Mus musculus with 8 samples.

Results

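Nxpe2, Adtrp and Tiam2 are 3 genes with little described work in liver, out of 55450 genes listed in the tables and 13303 with enough counts to be tested. They were picked from measured values, for being lower in every liver that lacked Cebpa in hepatocytes, and all 3 passed the filter on low counts. Because the knockout-against-control contrast selected them, their differences in it are given as descriptions, with no test. Livers came from mice that entered the diets at 10 weeks of age, were accustomed to liquid control food over 5 days and then received liquid food with 5% (vol/vol) ethanol for 4 weeks. The 4 controls were Cebpa fl/fl mice without Cre (Cre-), and the 4 knockouts were CebpaΔHep mice (Cre+), in which both floxed Cebpa alleles are deleted in hepatocytes. All 8 mice received ethanol, so every value below is a difference between genotypes under that diet. The sources used here do not give the promoter that drives Cre, or the sex or litters of the mice, and do not say whether each library is from 1 animal; p-values then measure only the spread between these samples, which may be technical.

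Cebpa encodes C/EBPα, a basic leucine zipper transcription factor that binds DNA as a dimer and maintains many genes of the mature hepatocyte. Nxpe2 encodes a member of the neurexophilin and PC-esterase domain family, whose function in liver is not established. Adtrp encodes a multipass membrane protein named for its induction by androgen and its effect on tissue factor pathway inhibitor in endothelial cells, and the protein also hydrolyses esters of hydroxylated fatty acids. Tiam2, also called STEF, encodes an exchange factor that loads the small GTPase Rac with GTP, and is best known from neurons.

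Windows around 4 annotated starts are printed: that of the longest Nxpe2 form, to which most Nxpe2 RNA was assigned in controls, 1 start of Adtrp, and those of a full-length and an internal form of Tiam2. Other annotated forms begin elsewhere, Nxpe2-203 and Nxpe2-204 at base 48353454 of chromosome 9, and 5 of the 8 Adtrp forms between bases 41800566 and 41828453 of chromosome 13, inside the gene. The RefSeq windows on GRCm38.p6 lie at chr9:48340849-48341148 for the start of Nxpe2-201, the longest Nxpe2 transcript, and at chr13:41847567-41847866 for Adtrp-204, both on the minus strand. For Tiam2 they lie at chr17:3396957-3397256 for the full-length Tiam2-201 and at chr17:3482065-3482364 for the shorter, internal Tiam2-207, on the plus strand. Each window is printed 5′ to 3′ on the strand of its gene, and the capital marks the first transcribed base.
Nxpe2: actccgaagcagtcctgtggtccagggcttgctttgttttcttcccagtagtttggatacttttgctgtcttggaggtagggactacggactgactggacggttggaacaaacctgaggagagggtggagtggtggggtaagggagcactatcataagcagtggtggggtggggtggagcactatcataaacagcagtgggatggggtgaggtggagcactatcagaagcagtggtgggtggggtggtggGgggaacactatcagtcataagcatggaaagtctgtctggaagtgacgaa
Adtrp: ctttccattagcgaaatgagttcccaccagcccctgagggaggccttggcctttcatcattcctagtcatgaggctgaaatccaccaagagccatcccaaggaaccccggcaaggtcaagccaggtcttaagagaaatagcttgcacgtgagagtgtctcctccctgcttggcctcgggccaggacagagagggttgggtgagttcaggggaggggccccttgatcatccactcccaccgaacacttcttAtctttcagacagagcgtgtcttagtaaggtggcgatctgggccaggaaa
Tiam2-201: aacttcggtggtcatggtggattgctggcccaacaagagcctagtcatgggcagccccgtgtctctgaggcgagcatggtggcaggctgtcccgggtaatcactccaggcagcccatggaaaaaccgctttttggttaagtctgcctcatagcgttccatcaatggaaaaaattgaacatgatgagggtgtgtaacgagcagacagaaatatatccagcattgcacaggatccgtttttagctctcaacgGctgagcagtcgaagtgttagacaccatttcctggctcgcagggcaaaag
Tiam2-207: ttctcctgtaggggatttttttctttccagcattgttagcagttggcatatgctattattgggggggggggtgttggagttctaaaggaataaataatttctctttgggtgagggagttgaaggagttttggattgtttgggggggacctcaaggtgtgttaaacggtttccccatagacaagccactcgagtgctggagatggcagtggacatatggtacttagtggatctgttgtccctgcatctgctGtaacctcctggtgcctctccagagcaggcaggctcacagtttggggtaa
The search for the C/EBP motif TTGCNNAA or TTNNGCAA on the other strand, found 0 matches in these windows and in 2 further windows, at Adtrp-201 and Tiam2-206. Of the 32851 mouse promoter windows of the same length, 10.8% held such a match. The palindrome TTGCGCAA, which is 1 case of that motif, and the TATA box TATAAA were also at 0 matches, against 0.183% and 13.6% of all windows. The only CCAAT box (CCAAT or ATTGG, found in 37.4% of windows) lay 193 bases before the Tiam2-207 start, as ATTGG. These counts say only that the letters were not in these windows. The Nxpe2 window held the run GGAGCACTATCA at 3 places, all before the start, and 1.19% of the windows had a run as long that occurred at least as often.

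Total expected counts per liver ranged from 21048350 to 28148744, and 1 count was worth 0.0341 to 0.0485 CPM, counts scaled to the library total, with library sizes adjusted by the TMM method. Cebpa itself stood at 293.3 ± 31.1 CPM in controls against 7.06 ± 1.65 CPM in knockouts (SD, n = 4 each), so the knockouts held 2.41% of the control level. Of the 13303 genes tested, 274 (2.06%) were called at an edgeR adjusted p below 0.05, 161 of them (1.21%) lower and 113 (0.849%) higher in knockouts. The split between lower and higher depended on the scaling: library size alone gave 115 lower and 161 higher, and limma-trend on log2(TPM + 1) gave 86 lower and 151 higher. A raw p below 0.05 was found for 18.5% of tested genes, and DESeq2 called 6.45%; the counts for neighbours and gene lists below are set against these shares. In 787 tested genes, 5.92%, every control exceeded every knockout. Since the 3 genes were selected on this contrast, these shares are background, and nothing is read from all 3 being among them.

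The 3 genes differed from each other more than the shared description implies. In knockouts Nxpe2 was far lower and Tiam2 close to 0, but Adtrp kept 50.4% of its control level in knockouts and remained an abundant transcript. The word lost therefore does not describe Adtrp. Per unit of length, in TPM, which corrects for both transcript length and library total, the order in controls was Adtrp at 200.1 ± 8.59, Nxpe2 at 8.13 ± 0.253 and Tiam2 at 1.85 ± 0.804 TPM, and no 2 of these neighbours overlapped in any liver. In knockouts the order was the same, at 110.7 ± 4.58, 1.95 ± 0.634 and 0.0575 ± 0.0222 TPM.

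**Figure D1:**
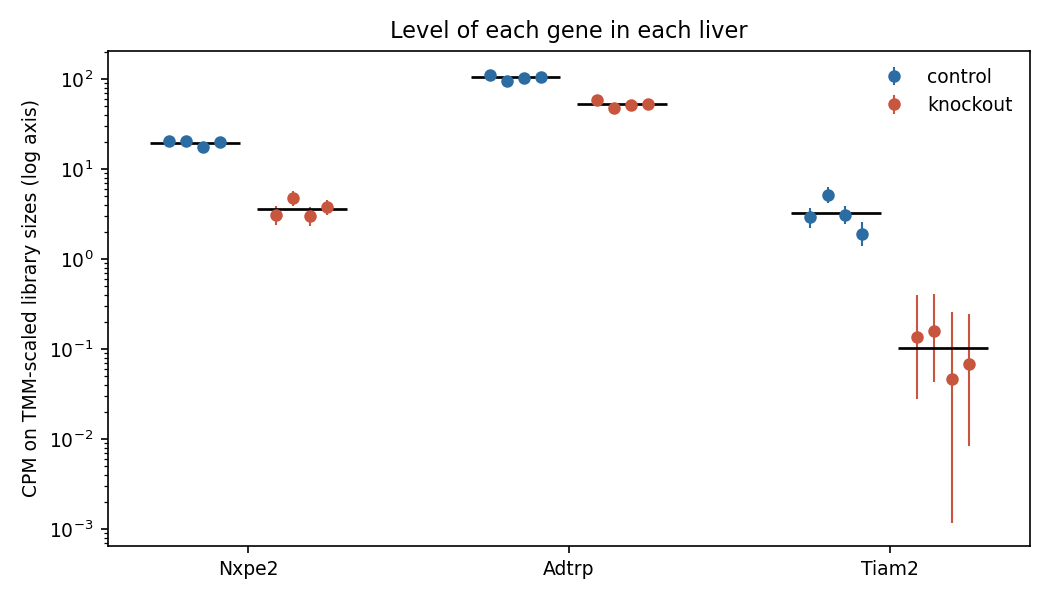
Level of Nxpe2, Adtrp and Tiam2 in each of the 8 livers, in CPM on TMM-scaled library sizes on a log axis; points are livers, vertical bars are 95% counting intervals and horizontal lines are group means. Control and knockout livers do not overlap for any of the 3 genes, and the distance is smallest for Adtrp (103.5 against 52.2 CPM).

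Nxpe2 (ENSMUSG00000032028.15, protein coding, chr9:48318006-48353454, minus strand, mm10) was measured at 20.2, 20.2, 17.4 and 20.0 CPM in controls 1 to 4 and at 3.05, 4.71, 2.97 and 3.75 CPM in knockouts 1 to 4. Controls lay within a narrow band in which only control 3 stood apart, and the lowest control was 3.70 times the highest knockout. The group means were 19.5 ± 1.38 and 3.62 ± 0.804 CPM, a log2 fold change of -2.42 (SE 0.15), and the knockouts held 18.6% of the control level. Behind these means were 1739 counts in controls and 362 in knockouts, for a depth-scaled ratio of 5.30 (95% counting interval 4.73 to 5.95). The relative spread was wider in knockouts, with a coefficient of variation of 22.2% against 7.08%. In TPM, Nxpe2 exceeded 54.4% of tested genes in controls and 23.5% in knockouts.

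Adtrp (ENSMUSG00000058022.14, protein coding, chr13:41763148-41847684, minus strand) was measured at 110.8, 95.5, 103.2 and 104.4 CPM in controls 1 to 4 and at 58.2, 47.4, 51.2 and 51.9 CPM in knockouts 1 to 4. Each group was tight, with coefficients of variation of 6.07% and 8.60%, and the lowest control was 1.64 times the highest knockout. The means were 103.5 ± 6.28 and 52.2 ± 4.49 CPM, a log2 fold change of -0.99 (SE 0.08). Totals of 9282 and 5136 counts gave a depth-scaled ratio of 1.99 (95% counting interval 1.93 to 2.06). Adtrp exceeded 95.9% of tested genes in control TPM and still 93.0% in knockout TPM. Ordered by fold change, it was number 199 from the lowest of the 13303 genes, where Nxpe2 was number 41 and Tiam2 number 13.

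Tiam2 (ENSMUSG00000023800.15, protein coding, chr17:3326573-3531344, plus strand) was a rare transcript in controls and was close to the detection limit in knockouts. The controls had 64, 106, 73 and 44 counts and the knockouts 3, 4, 1 and 2 counts. Those counts amounted to 2.89, 5.14, 3.08 and 1.91 CPM in controls against 0.135, 0.158, 0.0457 and 0.0682 CPM in knockouts. Controls varied widely among themselves, with control 2 highest and control 4 lowest, yet the lowest control was 12.1 times the highest knockout. Control 2 was also the control that differed most from the others over whole libraries. Means were 3.25 ± 1.36 and 0.102 ± 0.0534 CPM, a log2 fold change of -4.93 (SE 0.45), and the knockouts held 3.13% of the control level. The 287 control and 10 knockout counts gave a depth-scaled ratio of 31.6 (95% counting interval 17.0 to 66.7). The coefficient of variation in controls, 41.8%, was larger than that of 91.2% of tested genes, while for Nxpe2 and Adtrp 19.2% and 13.9% of genes varied less. These shares were not matched for level. Tiam2 exceeded only 24.9% of tested genes in control TPM, and counting error is relatively larger at low counts.

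**Figure D2:**
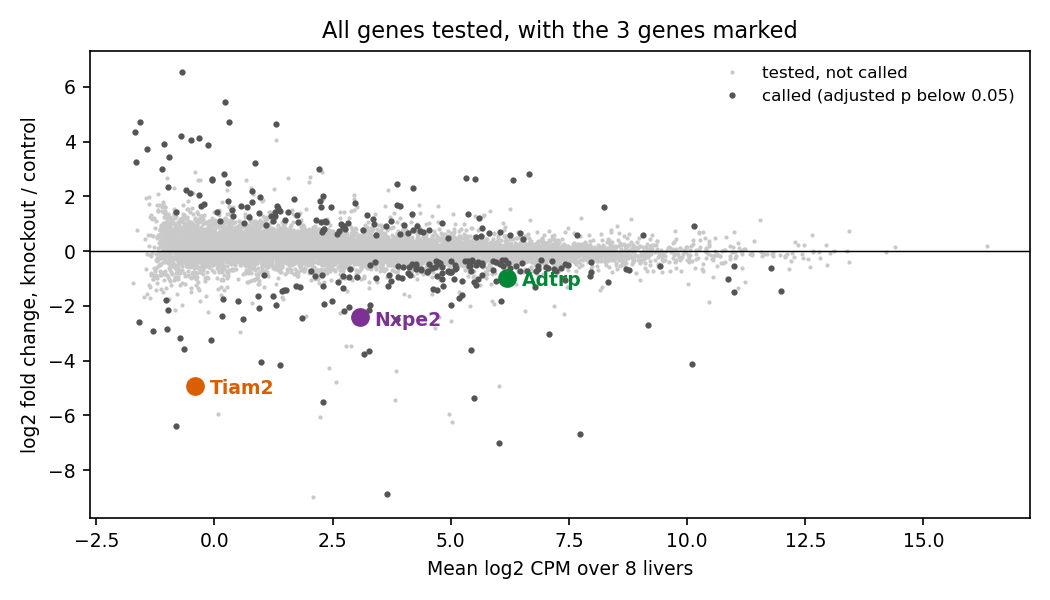
Log2 fold change (knockout over control) of the 13303 tested genes against their mean log2 CPM over the 8 livers, with called genes dark and the 3 genes in colour. Tiam2 lies far down among low genes (-4.93), Nxpe2 at -2.42 and Adtrp at -0.99 among more abundant genes.

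The deposited tables also give, for each gene and liver, a mean transcript length weighted by the estimated share of each transcript, which limits how much of a gene's RNA its longest form can make up. For Nxpe2 this length was 3103.96, 3366, 3035.57 and 3159.29 bases in controls 1 to 4, and 3366, 2584.6, 2081.28 and 3134.03 bases in knockouts 1 to 4. The value 3366 is exactly the length of Nxpe2-201, the longest annotated protein-coding form, so control 2 and knockout 1 had all Nxpe2 reads assigned to it. In controls Nxpe2-201 made up at least 82.9% in every liver. In knockouts the limits ran from 33.5% to 54.9% in knockout 3, through 59.6% to 72.6% in knockout 2, up to all of it in knockout 1. The group ranges overlapped, and knockout 3 rests on 65 counts.

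Knockouts 1 and 3 had almost equal Nxpe2 counts, 68 and 65, but stood at 1.27 and 2.02 TPM, since TPM divides by a length that follows that estimate. The ratio of group means of Nxpe2 was 4.17 in TPM and 5.37 in CPM. For Adtrp, whose lengths were alike in both groups, the ratios were 1.81 in TPM and 1.98 in CPM, and for Tiam2 32.2 and 32.0. TPM and CPM also scale the libraries differently: Mrpl43, a mitochondrial ribosomal protein gene that was not called, had ratios of 0.949 in TPM and 1.03 in CPM. How much of the Nxpe2 difference each accounts for was not tested.

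Adtrp lengths stayed between 807 and 868 bases in controls and between 798 and 840 bases in knockouts, overlapping. The longest form, Adtrp-201 (2440 bases), could make up at most 24.7% in any control and 23.4% in any knockout, so most Adtrp RNA was assigned to shorter forms in both groups. The mean lengths were below the 1046 bases of Adtrp-204, the shortest form that starts at the outer end of the gene, so part of the RNA was assigned to forms that start further inside, outside the printed window. Tiam2 was likewise assigned mainly to short forms. Its lengths in controls were 2326.56, 2392.34, 2478.62 and 2363.53 bases, and the 2 longest protein-coding forms, Tiam2-201 (6127 bases) and Tiam2-202 (5725 bases), together made up at most 32.3% in any control. Knockouts 3 and 4, with 1 and 2 counts, were assigned wholly to Tiam2-207 (2131 bases), a processed transcript that starts inside the gene at base 3482315 of chromosome 17. With 10 counts in all knockouts, a difference in transcript use between the groups was not detectable for Tiam2.

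**Figure D3:**
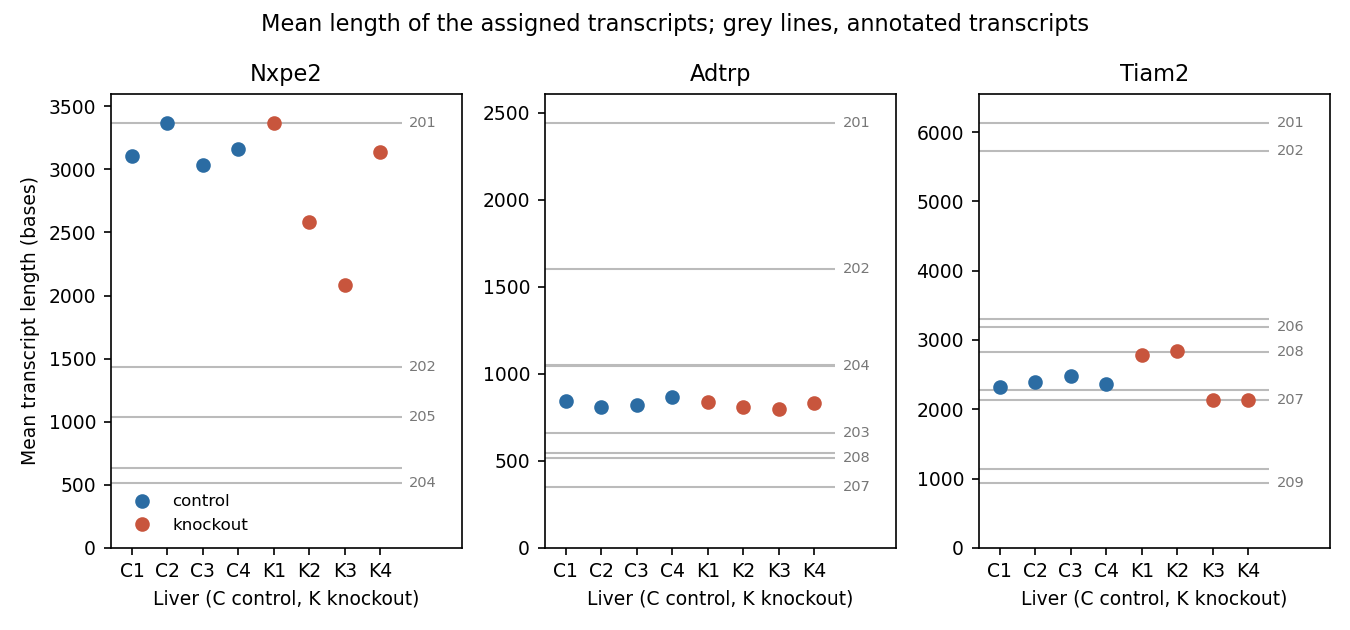
Mean length of the transcripts assigned to each gene in each liver, in bases, with grey lines at the lengths of annotated transcripts (numbers are transcript suffixes). Nxpe2 sits near its longest form in controls and as low as 2081.28 bases in knockout 3, while Adtrp and Tiam2 sit far below their longest forms in all 8 livers.

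Reads from overlapping genes can enter a gene's count when strand is not used, and the strand setting of the counting is not given in the sources used here. Nxpe2 lies wholly inside Nxpe4, a family member on the opposite strand (chr9:48162023-48400025), which had 32 counts in controls and 41 in knockouts over all livers. The last 12089 bases of Tiam2 overlap Tfb1m, a mitochondrial rRNA methyltransferase gene on the opposite strand, at 5.81 ± 0.484 CPM in controls against 5.33 ± 0.448 CPM in knockouts (log2 fold change -0.12, edgeR adjusted p = 0.627). The antisense genes 1700061E18Rik and Gm28564 at Adtrp and the pseudogenes Gm49221 and Gm7043 inside Tiam2 averaged at most 0.0121 CPM. The expected counts of all 3 genes were whole numbers in all 8 livers, as they are where no read is divided between genes; 84.5% to 85.3% of all values above 0 in each liver were whole.

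The neighbouring genes tested had log2 fold changes nearer to 0. Of 19 genes, the 3 nearest tested on each side of each gene and Tfb1m, 0 were called by edgeR (2.06% of all tested genes), 3 had a raw p below 0.05 (18.5% of all) and 2 were called by DESeq2 (6.45% of all). With 19 genes these counts are near the background and are no result about the neighbours. The 2 called by DESeq2 were Bud13, a splicing factor gene (log2 fold change -0.68, edgeR adjusted p = 0.0719), and its neighbour Zpr1 (log2 fold change -0.62, edgeR adjusted p = 0.102), 2019 and 2035 kb from the near end of Nxpe2. Rexo2 and Rbm7, much closer at 115 and 135 kb from the near end of Nxpe2, had log2 fold changes of -0.01 and -0.02. Next to Adtrp, Tmem170b was at -0.29 (edgeR adjusted p = 0.121). Next to Tiam2, the noncoding gene Gm49797 was at -0.47 (edgeR adjusted p = 0.398), from 1.44 to 1.03 CPM. The range over the 19 genes was -0.68 to 0.76, which takes in neither Nxpe2 nor Adtrp nor Tiam2. The 3 genes were chosen for their fall in this contrast and the neighbours by position, so that gap follows from the choice.

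**Figure D4:**
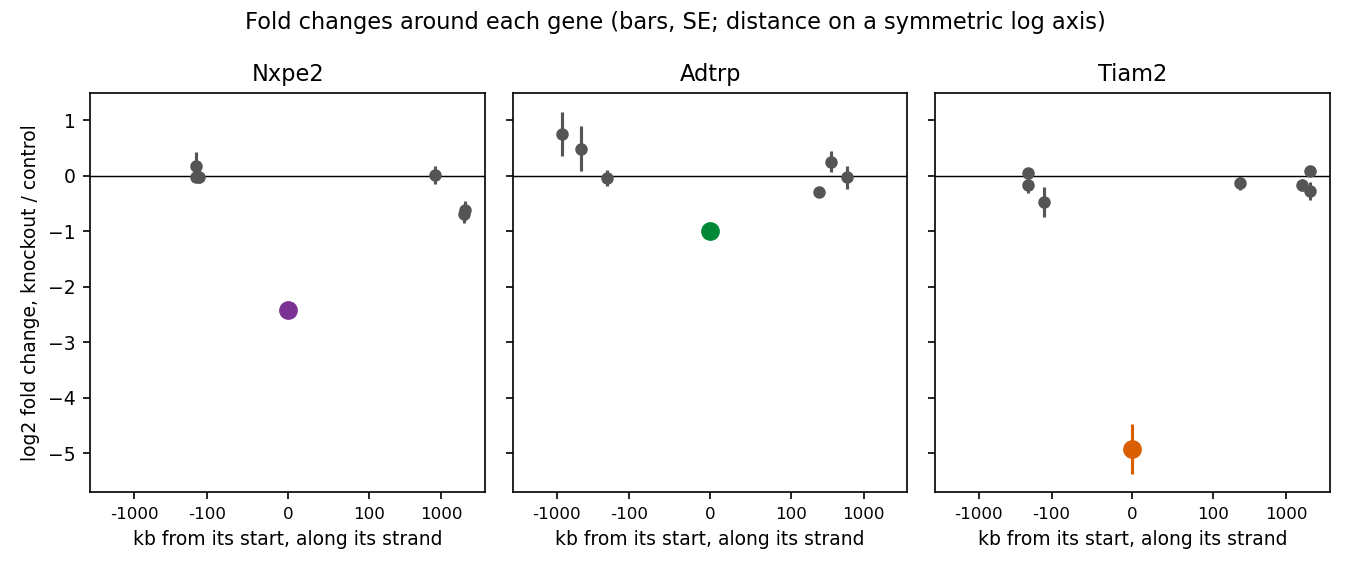
Log2 fold change (knockout over control) with its SE for each of the 3 genes (coloured) and its nearest and overlapping tested genes (grey), against distance between starts in kb along the strand of the gene, on a symmetric log axis. Each start is the outermost annotated start of the gene. The 19 neighbours lie between -0.68 and 0.76, above the gene they flank, which was chosen for its fall.

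The family of Nxpe2 gave little to compare, because its relatives were barely present. Of 8 other NXPE and neurexophilin genes only Nxpe3 was tested, at 0.471 ± 0.0905 CPM in controls against 0.505 ± 0.0710 CPM in knockouts (log2 fold change 0.10, edgeR adjusted p = 0.878). The pseudogene Nxpe1-ps averaged 0.121 and 0.173 CPM, Nxpe4 0.349 and 0.392 CPM, and Nxpe5 and Nxph1 to Nxph4 at most 0.0442 CPM in either group. By edgeR 0 were called (2.06% of all tested genes), with 0 at a raw p below 0.05 (18.5% of all) and 0 by DESeq2 (6.45% of all). With 1 gene tested, these counts say nothing about the family. Per length, Nxpe3 stood at 0.0925 TPM in controls, against 8.13 TPM for Nxpe2.

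Among relatives of Adtrp and genes of branched fatty acid ester turnover, 5 of 6 were tested and edgeR called 0 (2.06% of all tested genes). A raw p below 0.05 was found for 1 (18.5% of all tested genes), and DESeq2 called 1 (6.45% of all). The median log2 fold change was 0.09 (0.0036 over all genes tested). Aig1, the closest relative and a hydrolase of the same esters, was measured at 8.05 ± 2.06 CPM in controls against 6.20 ± 1.08 CPM in knockouts, log2 fold change -0.38 (edgeR adjusted p = 0.330). Its livers overlapped, at 7.58, 11.0, 7.37 and 6.25 CPM in controls against 6.02, 7.63, 6.12 and 5.01 CPM in knockouts. The gene called by DESeq2 alone was Lipe, hormone-sensitive lipase, at 17.4 ± 2.38 and 29.1 ± 6.50 CPM (log2 fold change 0.74, edgeR adjusted p = 0.0515).

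The tissue factor pathway, to which the name of Adtrp refers, held 12 tested genes. By edgeR 1 was lower and 0 were higher (1.21% and 0.849% of all tested genes). A raw p below 0.05 was found for 4 (18.5% of all), and DESeq2 called 2 (6.45% of all). Their median log2 fold change was 0.13. The called gene was F5, coagulation factor V, the cofactor of factor Xa. F5 fell from 834.6 ± 31.7 to 572.6 ± 33.9 CPM (log2 fold change -0.54, SE 0.09, edgeR adjusted p = 0.0167), with no overlap of livers. The call was lost in 2 of 8 fits without 1 liver, those without knockout 1 or knockout 2, up to an adjusted p of 0.0655 without knockout 2. Tfpi, the inhibitor itself, was at 3.44 ± 0.327 CPM in controls against 4.97 ± 0.848 CPM in knockouts (log2 fold change 0.53, edgeR adjusted p = 0.128).

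Of the 9 genes of androgen response and conversion, 1 was lower and 0 were higher by edgeR (1.21% and 0.849% of all tested genes). Raw p-values below 0.05 numbered 3 (18.5% of all), and DESeq2 called 2 (6.45% of all). The median log2 fold change was -0.22. Srd5a1, a 5α-reductase that reduces testosterone to dihydrotestosterone, fell from 69.3 ± 18.6 to 34.3 ± 4.63 CPM (log2 fold change -1.01, SE 0.18, edgeR adjusted p = 0.0279). Its controls stood at 71.0, 93.1, 48.2 and 64.8 CPM and its knockouts at 40.9, 31.3, 34.3 and 30.9 CPM, without overlap. The call was lost in 5 of 8 fits that left out 1 liver, those without control 1, control 4, knockout 2, knockout 3 or knockout 4, up to an adjusted p of 0.0945 without knockout 2.

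Around Tiam2, a list of exchange factors for Rac or related GTPases held 24 other tested genes. Of these, edgeR called 1 lower and 0 higher (1.21% and 0.849% of all tested genes). A raw p below 0.05 was found for 7 (18.5% of all), and DESeq2 called 2 (6.45% of all). Their median log2 fold change was 0.09. The called gene was Dock8, which is known mainly as an exchange factor for Cdc42 in leukocytes and not for Rac. Dock8 fell from 26.2 ± 4.76 to 16.5 ± 1.93 CPM (log2 fold change -0.66, SE 0.14, edgeR adjusted p = 0.0422), and lost its call in 6 of 8 fits without 1 liver, all but those without control 4 or knockout 4, up to an adjusted p of 0.116 without knockout 2. Tiam1, the closest relative of Tiam2, was at 0.361, 0.388, 0.337 and 0.651 CPM in controls against 0.764, 0.672, 1.05 and 0.341 CPM in knockouts. Those ranges overlapped, and the log2 fold change was 0.67 (edgeR adjusted p = 0.400), opposite in sign to that of Tiam2.

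Downstream, among Rac GTPases, inhibitors and effectors, 28 of 32 genes were tested. Here edgeR called 1 higher and 0 lower (0.849% and 1.21% of all tested genes). A raw p below 0.05 was found for 2 (18.5% of all), and DESeq2 called 1 (6.45% of all). The median log2 fold change was 0.12. Rac1, the main substrate of Tiam2, stood at 112.8 ± 2.87 and 115.0 ± 2.10 CPM (log2 fold change 0.03, edgeR adjusted p = 0.847). Pak6, a kinase that binds Cdc42, rose from 0.268 ± 0.112 to 1.25 ± 0.470 CPM (log2 fold change 2.21, SE 0.41, edgeR adjusted p = 0.0267). Its counts were 3, 7, 9 and 5 in controls and 25, 35, 15 and 53 in knockouts, and 5 of 8 fits without 1 liver lost the call, those without control 1, 3 or 4 or knockout 1 or 2, up to an adjusted p of 0.0783 without control 4. Among cell polarity partners of the Tiam proteins, edgeR called 0 of 14 tested genes (2.06% of all tested genes). A raw p below 0.05 was found for 4 (18.5% of all). DESeq2 called 1 (6.45% of all), Patj, with a log2 fold change of 0.66 (edgeR adjusted p = 0.123). The median log2 fold change of these partners was -0.02.

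**Figure D5:**
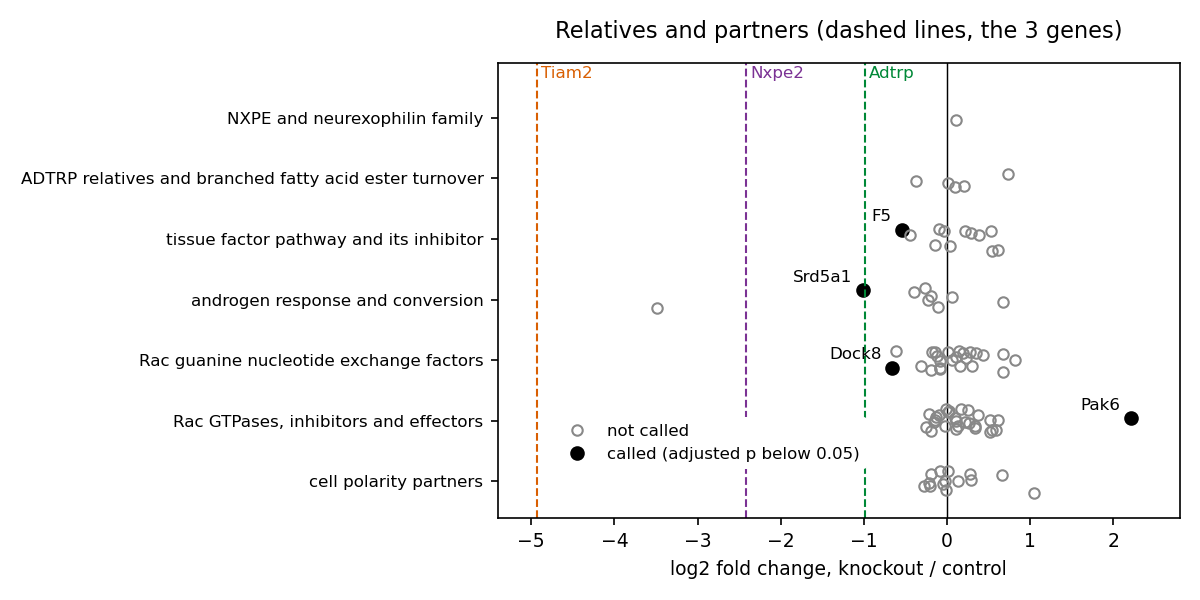
Log2 fold change (knockout over control) of each tested gene in the 7 lists of relatives and partners, with called genes filled and named, and dashed lines at Tiam2, Nxpe2 and Adtrp. F5, Srd5a1 and Dock8 are called lower and Pak6 higher, and most other genes lie near 0.

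Other cell types' markers moved between the groups as well, and in bulk liver fewer cells of a type and less RNA per cell cannot be told apart. Hepatocyte markers summed to 101631 to 128314 CPM in controls against 113356 to 125355 CPM in knockouts. By edgeR 1 of 8 was called lower, Serpina1a, and 0 higher (1.21% and 0.849% of all tested genes). A raw p below 0.05 was found for 3 (18.5% of all), and DESeq2 called 2 (6.45% of all). Their median log2 fold change was -0.23, with 3 above and 5 below 0. Of 7 tested cholangiocyte markers, 7 had a raw p below 0.05 (18.5% of all tested genes) and DESeq2 called 5 (6.45% of all). By edgeR 5 were called higher (Krt19, Epcam, Spp1, Pkhd1 and Bicc1) and 0 lower, against 0.849% and 1.21% of all. The list summed to 34.3 to 72.1 CPM in controls against 133.3 to 385.4 CPM in knockouts. Each of these 5 edgeR calls was lost when single livers were left out, in 4 to 7 of 8 fits, and all 8 fits gave a higher value in knockouts. For macrophage markers the sums were 179.0 to 372.8 and 278.0 to 468.5 CPM, for stellate markers 125.0 to 237.5 and 213.4 to 466.5 CPM, and for endothelial markers 148.4 to 190.7 and 181.2 to 239.1 CPM. By edgeR 0 genes of these lists were called among 10, 8 and 8, with 4, 4 and 2 at a raw p below 0.05 (18.5% of all tested genes) and 0 by DESeq2 (6.45% of all), which gave no adjusted p for Col1a1 and Col3a1. The fitted log2 fold change was above 0 for all 10, 8 and 8 of them, with medians of 0.55, 0.55 and 0.25. Of 4 tested erythroid markers only Alas2 was called, by edgeR (2.06% of all tested genes) and by DESeq2 (6.45% of all), and it fell. All 4 had a log2 fold change below 0, and 2 had a raw p below 0.05 (18.5% of all). No marker of neutrophils or lymphocytes was high enough to be tested, and the neutrophil markers Ly6g and Mpo were at 0 in all livers. The part of these cell types in the levels of Nxpe2, Adtrp and Tiam2 was not tested.

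Over the 8 livers, the genes whose log2 CPM followed Nxpe2 most closely among 11944 genes with at least 1 CPM were Cebpa (Pearson r = 0.993), the tetraspanin gene Tspan31 (0.988) and the major urinary protein gene Mup7 (0.985). For Adtrp they were Hsd11b1, the enzyme that regenerates active glucocorticoid (0.991), the glutathione transferase gene Mgst1 (0.985) and Gramd1c (0.985). Tiam2 was followed by D16Ertd472e (0.991), the membrane protein gene Stom (0.989) and again Gramd1c (0.987). The points are the same 8 libraries in 2 groups, so these values mostly describe the genotype difference that chose the 3 genes. All 8 of these genes were called lower in knockouts, although Mgst1 was not in 6 of 8 fits without 1 liver; Hsd11b1 went from 397.5 ± 36.8 to 48.5 ± 14.5 CPM and Gramd1c from 14.5 ± 1.53 to 3.52 ± 0.506 CPM.

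Whether the 3 genes varied together within the groups cannot be told from 8 livers. The correlations of their deviations from the group means were -0.57 for Nxpe2 with Adtrp, 0.32 for Nxpe2 with Tiam2 and -0.32 for Adtrp with Tiam2. The Tiam2 deviations in knockouts rest on 3, 4, 1 and 2 counts. Among controls, control 1 was highest for Nxpe2 and Adtrp and control 2 for Tiam2, and among knockouts, knockout 2 was highest for Nxpe2 and Tiam2 and lowest for Adtrp. Deviations of Cebpa from its group means, over the same 8 livers of both groups, correlated at 0.67 with those of Nxpe2, -0.49 with Adtrp and -0.17 with Tiam2. These values do not describe the Cebpa left in knockouts alone. By this within-group measure the most similar genes were Mrpl43, Ppp1r14b and Rpl9-ps6 for Nxpe2 (0.989, 0.970 and 0.951), Tcta, Smlr1 and Ubap2l for Adtrp (0.954, 0.953 and 0.951) and Dad1, Gtf2f1 and Nme1 for Tiam2 (0.966, 0.958 and 0.954). None of those 9 was called by edgeR, and they are the 3 highest of 11944 values for each gene, over only 8 livers that share depth and library effects.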

How the data were processed

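Polyadenylated liver RNA of 8 samples was sequenced from stranded TruSeq mRNA libraries, per the labels' protocols. Tools named in the submitters' processing notes are RSEM 1.2.22, STAR 2.5.1, Trimmomatic 0.36, Picard 1.84 and DESeq2, with build mm10. The authors deposited RSEM expected counts, TPM and FPKM per gene; FPKM was not used. The sources used here do not name the annotation release; GENCODE M21 holds all 55450 identifiers and supplied coordinates.

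Samples were grouped by genotype. Rounded expected counts were fitted in R 4.3.3 with edgeR 4.0.16 (filterByExpr with a minimum count of 10 and total of 15, TMM, robust quasi-likelihood test, two-sided, Benjamini-Hochberg threshold 0.05). SEs come from the fold change and F statistic, and a prior count of 2 was used for log2 CPM. Intervals at 95% cover counting error only. Alternatives used DESeq2 1.42.0, limma 3.58.1 on log2(TPM + 1) and log2(TPM + 0.1), other scalings and filters, left-out livers and a replicate block. The fit was also run on counts simulated with dispersions estimated from these livers, and nothing here rests on that run. Same-numbered livers' deviations correlated at 0.23, 0.01, -0.03 and -0.05, so numbers were not treated as pairs. No pair of livers agreed within sampling noise. Pairs with control 2 differed most, at a chi-square per degree of freedom of 100.0 to 154.8. The other control pairs gave 27.8 to 51.2.

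The 3 genes and all gene lists were chosen with earlier results of these data known. Other genes were named by a rule: relatives, overlapping and nearest tested genes, called list members (otherwise the 2 of smallest p), and the 3 most similar patterns; Tfpi, Rac1 and Patj were named after their values were seen.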

Additional observations from a re-analysis of the deposited data

Results flagged for a closer look

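Among 28 sets of 4 livers checked for 1 value far from the rest, 2 were marked, and chance marks about 1 in 20. Nxpe2 in control 3 stood at 17.4 CPM, below the other controls at 20.0 to 20.2 CPM; the gap was 0.935 of the whole range of the controls, above the value that marks 1 liver. Tiam1 in control 4 stood at 0.651 CPM, above the other controls at 0.337 to 0.388 CPM, with a gap of 0.837 of the range.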

How the results depend on the processing

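The log2 fold changes of Nxpe2, Adtrp and Tiam2 were negative in all 51 values from 17 alternatives per gene. The 3 genes were chosen for being lower in every knockout liver of these same data, so that sign was all but fixed by the choice. Only the sizes below describe how far the processing mattered. Leaving out 1 liver gave -2.57 to -2.35 for Nxpe2, -1.05 to -0.95 for Adtrp and -5.22 to -4.63 for Tiam2. On log2(TPM + 1) and log2(TPM + 0.1) the values were -1.65 and -2.06 for Nxpe2, -0.85 and -0.85 for Adtrp, and -1.39 and -3.55 for Tiam2; a pseudocount understates the change of a low gene. Genes called numbered 274, against 858 by DESeq2, 176 with a replicate block, 431 without control 2 and knockout 4, and 108 (without knockout 2) to 372 (without knockout 4) when 1 liver was left out. List calls moved by 1 gene. With the replicate block, whose numbers nothing in the labels ties to a litter or day, the calls of F5, Srd5a1, Dock8 and Pak6 were lost. For ADTRP relatives the count of 0 became 1 with library size alone, with DESeq2 and without control 2 and knockout 4 (0 to 1 with 1 liver left out). For the tissue factor pathway the count of 1 became 2 with library size alone and with DESeq2, and 0 with the replicate block (0 to 1). For androgen genes the count of 1 became 2 with DESeq2 and without control 2 and knockout 4, and 0 with the block (0 to 1). For the exchange factors listed with Tiam2 the count of 1 became 0 with library size alone and with the block, and 2 with DESeq2 (0 to 2). For Rac effectors the count of 1 became 0 with the block and without control 2 and knockout 4 (0 to 1). For polarity partners the count of 0 became 1 with DESeq2 and without control 2 and knockout 4 (0 to 1). The cause of these moves was not tested. The 10 Tiam2 counts in knockouts limit its fold and its transcript shares.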
